A study of Homo sapiens with 30 samples.

Results

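The genes described here are 42 genes of mitotic exit and chromosome handling outside the core kinases, cyclins, centromere and motor proteins: cytokinesis and central spindle genes, condensin subunits and other chromosome structure genes, spindle and microtubule proteins, ubiquitin ligase factors, a set of kinases and CDK partners, and FOXM1. They were chosen by name, with 2 older symbols resolved (KIAA1524 to CIP2A and FAM64A to PIMREG), from probes detected at p under 0.01 on at least 3 arrays. All 42 genes met this rule through 60 of their 64 probes. They were measured among 12419 genes tested in the first experiment and 11040 in the second. 41 of the 42 were detected on all 30 arrays, and NCAPH, the dimmest, on 26.

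RNA came from U2OS, a human osteosarcoma cell line, on single-colour Illumina bead arrays, with 3 arrays in each of 10 groups. Cells were infected with retroviruses expressing short hairpin RNAs (shRNAs), irradiated or mock irradiated 2 days later, and harvested 4 h after that. In the first experiment the shRNA treatments were an NFBD1 hairpin (hairpin b) together with a p53 shRNA, hairpin b alone, the p53 shRNA alone and a control shRNA (pSIREN neg), each at 5 Gy and at 0 Gy. The second experiment set another hairpin, NFBD1a, against its own control shRNA, both at 0 Gy. The study asked how NFBD1, the checkpoint mediator encoded by MDC1, shapes gene expression with and without radiation, and how far p53 is involved. All groups carry a retrovirus, so no uninfected cells were compared, and the labels do not say whether the 3 arrays of a group came from separate cultures, so the p-values measure the spread between arrays, which may be technical.

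Mitotic genes of this kind are made mainly in G2 and M phase. Many are repressed in G1 through the DREAM complex, which binds promoters at the CHR element (cell cycle genes homology region), and are switched on later by B-MYB and FOXM1, often with NF-Y at CCAAT boxes. Condensin compacts chromosomes, the anaphase-promoting complex with its E2 enzymes destroys securin so that separase can part the sister chromatids, and the central spindle and centralspindlin then place the cleavage furrow. DNA damage in cells with p53 raises CDKN1A, the CDK inhibitor p21, which favours the repressive complexes.

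Promoter sequence is shown for the members at both ends of the irradiation response reported below, because a shared CHR or CCAAT element is the feature by which such genes are usually grouped. RefSeq promoters (build GRCh38.p14, 250 bases before to 50 after the annotated start, 1 per gene) were matched for 35 of the 42 members. TROAP, PBK, RACGAP1, PIMREG, UBE2C, FOXM1 and CDCA2 were not among them. The 4 matched members with the most negative average change after radiation are given first. CKS1B and ARHGAP11A, the 2 with the least negative one, follow, and the place of ARHGAP11A rests on its brightest probe, since its other probe changed by -0.67. Capitals mark every match, on either strand, to the CHR forms TTTGAA and also TTCGAA, to the CCAAT box, and to the E2F-type forms TTCCCGC as well as TTGGCGC, then TTCGCGC and lastly TTGCCGC.
GAS2L3, chr12:100593368-100593667 on the plus strand: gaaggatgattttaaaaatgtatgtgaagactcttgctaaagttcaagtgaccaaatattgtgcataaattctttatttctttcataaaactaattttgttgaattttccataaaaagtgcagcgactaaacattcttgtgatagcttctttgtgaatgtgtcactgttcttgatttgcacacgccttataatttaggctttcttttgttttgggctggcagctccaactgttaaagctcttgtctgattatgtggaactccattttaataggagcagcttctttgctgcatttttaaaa
DEPDC1, chr1:68497033-68497332 on the minus strand: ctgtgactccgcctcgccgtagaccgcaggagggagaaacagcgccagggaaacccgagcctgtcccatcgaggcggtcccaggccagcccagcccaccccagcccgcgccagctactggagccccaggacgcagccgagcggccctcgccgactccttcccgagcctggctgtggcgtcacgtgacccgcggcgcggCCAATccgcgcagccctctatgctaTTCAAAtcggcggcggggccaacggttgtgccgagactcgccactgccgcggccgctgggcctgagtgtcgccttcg
ASPM, chr1:197146620-197146919 on the minus strand: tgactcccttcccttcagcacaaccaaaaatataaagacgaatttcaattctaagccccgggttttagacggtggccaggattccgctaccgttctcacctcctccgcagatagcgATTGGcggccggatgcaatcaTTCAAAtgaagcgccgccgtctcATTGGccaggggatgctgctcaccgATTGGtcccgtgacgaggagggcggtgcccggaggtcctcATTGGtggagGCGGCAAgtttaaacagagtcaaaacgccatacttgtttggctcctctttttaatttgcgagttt
NEK2, chr1:211675572-211675871 on the minus strand: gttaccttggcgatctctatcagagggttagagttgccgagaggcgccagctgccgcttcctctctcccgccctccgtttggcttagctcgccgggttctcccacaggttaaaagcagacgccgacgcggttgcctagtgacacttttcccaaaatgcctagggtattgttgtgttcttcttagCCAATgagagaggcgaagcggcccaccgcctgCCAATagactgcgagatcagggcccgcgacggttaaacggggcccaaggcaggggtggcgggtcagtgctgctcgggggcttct
CKS1B, chr1:154974431-154974730 on the plus strand: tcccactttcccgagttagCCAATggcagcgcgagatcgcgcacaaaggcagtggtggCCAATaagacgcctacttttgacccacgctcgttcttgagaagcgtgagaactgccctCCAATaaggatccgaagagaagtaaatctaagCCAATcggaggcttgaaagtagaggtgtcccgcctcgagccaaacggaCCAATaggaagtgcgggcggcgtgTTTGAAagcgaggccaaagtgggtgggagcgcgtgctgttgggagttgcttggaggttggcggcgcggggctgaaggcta
ARHGAP11A, chr15:32614894-32615193 on the plus strand: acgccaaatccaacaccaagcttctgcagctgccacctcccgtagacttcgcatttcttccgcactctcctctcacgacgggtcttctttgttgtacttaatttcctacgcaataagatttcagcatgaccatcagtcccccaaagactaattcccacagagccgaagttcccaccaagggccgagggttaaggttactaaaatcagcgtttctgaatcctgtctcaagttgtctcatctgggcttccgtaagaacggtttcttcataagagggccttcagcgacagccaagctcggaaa

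In these windows DEPDC1, ASPM and CKS1B each held a CHR form together with at least 1 CCAAT box, NEK2 held 2 CCAAT boxes without a CHR form, and GAS2L3 and ARHGAP11A held none of the motifs. ASPM also had a TTGCCGC match on the minus strand, from base -15 to base -9. Over the 35 members, 25 (71.4%) held a CHR form, against 16.6% of the 27305 RefSeq promoters of the same length. A CCAAT box stood in 24 (68.6%) of the members and in 35.7% of all promoters. An E2F-type form stood in 8 (22.9%) of the members and in 13.1% of all promoters. CHR forms were present in 12 of the 16 matched members that fell and in 13 of the 19 that were not called. A match describes letters in this window and shows no binding. CCAAT can overlap the reverse complement of TTGGCGC, and TTCGAA reads the same on both strands.

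The targeted gene was checked first. MDC1 fell 2.67-fold with hairpin b at 0 Gy and 3.59-fold at 5 Gy and 2.26-fold at each dose in p53-depleted cells. NFBD1a lowered it 5.31-fold. The p53 transcript was not analysed here, but CDKN1A, its best known target, was 2.40-fold lower with the p53 shRNA at 0 Gy (limma adjusted p = 0.00134). Of 8 mesenchymal markers 6 were detected on all 30 arrays (VIM, COL1A1, SPARC, RUNX2, CDH2 and THY1) while COL1A2 was detected on fewer than 3. EPCAM, KRT8 and KRT18 of 6 epithelial markers and NEFL and TUBB3 of 6 neural ones were also detected on all 30 arrays, and none of 5 blood cell markers with a probe was, PTPRC, CD3E and ITGAM being detected on fewer than 3. Each array detected 34.1% to 40.3% of its probes, and the members' median number of beads per array was 30.5 to 49.5.

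Irradiation lowered spindle, cytokinesis and other genes of the set within 4 h, without a call among the condensin subunits. Averaged over the 4 shRNA treatments, 21 of 42 members fell and none rose, where 1.29% of all genes fell and 0.515% rose. The members' median change was -0.26 on the log2 scale, against 0.0041 over all genes tested, and 40 of 42 were below 0. Spindle and cytokinesis genes held most of the calls, with 8 of 11 and 5 of 8 lower. The chromosome structure genes held a single call of 8, and none of the 5 condensin subunits was called. 20 members were lower at 5 Gy in all 12 pairs of same-numbered arrays on 1 chip, as were 1.07% of all genes. In 11 members every one of the 12 irradiated arrays lay below every one of the 12 unirradiated arrays, which was so for 0.346% of all genes. These are whole-culture measurements, in which fewer cells in G2 and mitosis and less RNA per such cell cannot be told apart.

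**Figure D1:**
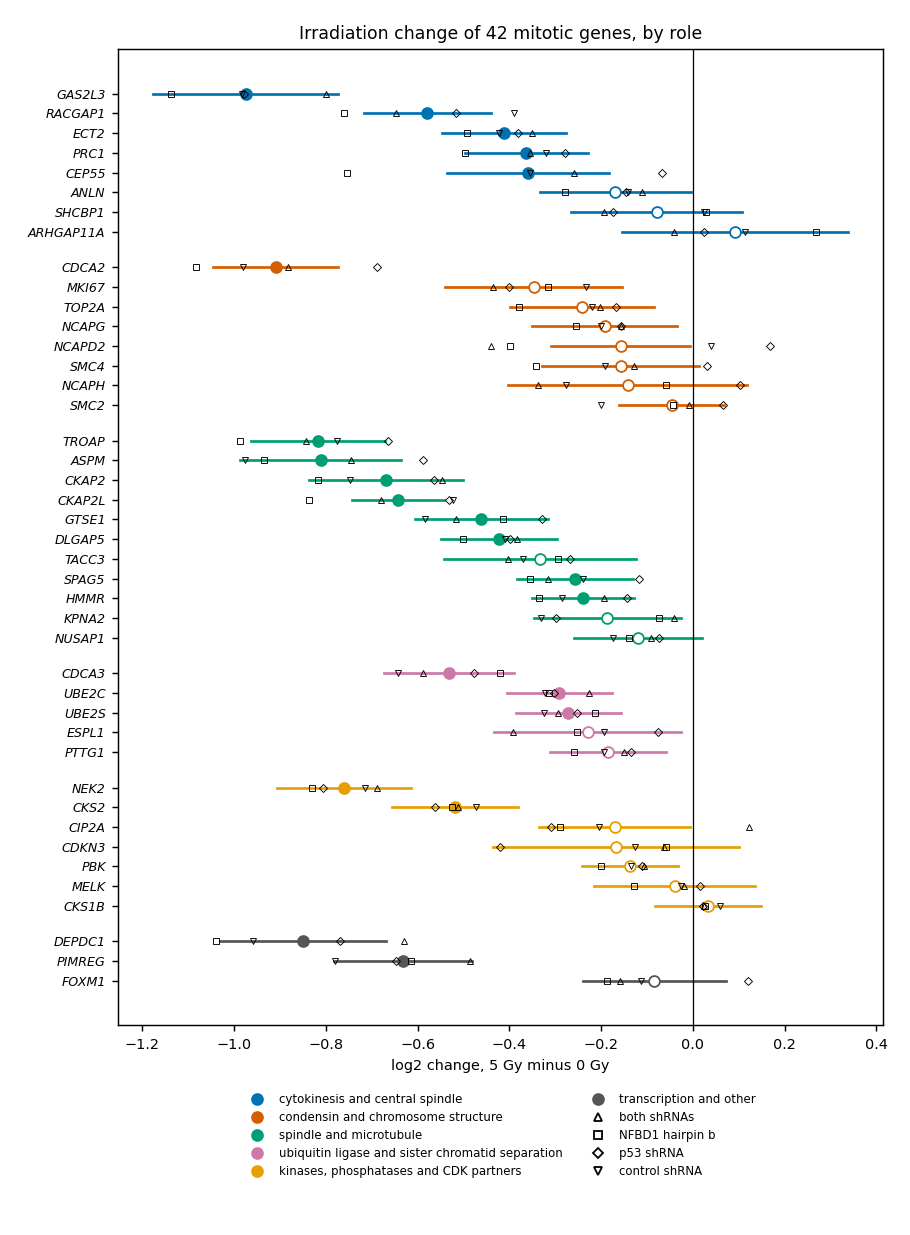
Log2 change of each of the 42 genes, 5 Gy minus 0 Gy, on the horizontal axis, grouped by role. Filled circles are averaged changes with adjusted p under 0.05 and open circles are not, lines are 95% confidence intervals of the average from limma, and small black symbols are the changes with both shRNAs, hairpin b, the p53 shRNA and the control shRNA. The averages run from -0.97 (GAS2L3) to 0.092 (ARHGAP11A).

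Among the 8 cytokinesis and central spindle genes, GAS2L3, which links actin to microtubules late in mitosis, had the largest decrease of the whole set. Its normalized log2 intensity was 6.46 to 7.41 (median 7.16) on the 12 irradiated arrays and 7.87 to 8.18 (median 8.09) on the 12 unirradiated arrays. The arrays did not overlap, and the averaged change was -0.97 ± 0.097 (SE; 1.97-fold lower, limma adjusted p = 5.32e-07). RACGAP1, a subunit of centralspindlin, ran from 9.45 to 10.15 (median 9.76) on irradiated arrays and from 9.98 to 10.59 (median 10.36) on unirradiated ones. Its highest irradiated array, replicate 3 with the control shRNA, reached into the unirradiated range, although the irradiated array was the lower one in all 12 same-chip pairs, and RACGAP1 fell 1.49-fold (limma adjusted p = 4.86e-06). ECT2, an exchange factor that acts at the cleavage furrow, PRC1, which bundles central spindle microtubules, and CEP55, the midbody scaffold for abscission, fell by 0.41, 0.36 and 0.36 on the log2 scale. ANLN (anillin, which scaffolds the contractile ring) changed by -0.17 and SHCBP1, a midbody partner of centralspindlin, by -0.079, neither of them called. ARHGAP11A was the least negative of all, at 0.092 ± 0.12 (SE). Its irradiated arrays covered 7.02 to 8.02 (median 7.55) and its unirradiated arrays 6.98 to 7.73 (median 7.44). This value comes from its brightest probe, and its other detected probe changed by -0.67 ± 0.087, so the direction for ARHGAP11A depends on the probe. It was the widest gap between probes among the 15 members with more than 1 detected probe, whose median gap was 0.077.

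Of the 8 condensin and chromosome structure genes, CDCA2 alone was called. CDCA2 (Repo-Man) brings protein phosphatase 1 to chromatin at anaphase. With both shRNAs it measured 7.99, 7.94 and 7.77 at 5 Gy, against 8.82, 8.93 and 8.60 at 0 Gy. With hairpin b it measured 7.64, 7.65 and 7.64 at 5 Gy, against 8.61, 8.85 and 8.72 at 0 Gy. In both treatments with hairpin b the doses were well apart. With the p53 shRNA it measured 8.13, 7.95 and 8.01 at 5 Gy, against 8.79, 8.66 and 8.71 at 0 Gy. With the control shRNA it measured 7.85, 7.56 and 7.71 at 5 Gy, against 8.50, 9.03 and 8.53 at 0 Gy. All irradiated arrays lay below all unirradiated ones, by 1.88-fold on average (limma adjusted p = 4.91e-09). The 5 condensin subunits, by contrast, had averaged changes of -0.19 to -0.046 by their brightest probes. These were NCAPG at -0.19, NCAPD2 and SMC4 at -0.16 each, NCAPH at -0.14 and SMC2, at the least negative end of the group, at -0.046 with a 95% interval of -0.16 to 0.069. SMC2 covered 8.63 to 8.97 (median 8.80) on irradiated arrays and 8.69 to 9.10 (median 8.83) on unirradiated arrays, overlapping throughout. The other detected probes of SMC2 changed by 0.055 and -0.14, so its direction depends on the probe, and those of SMC4 by -0.13 and -0.20. MKI67, the antigen Ki-67 that coats mitotic chromosomes, covered 5.64 to 6.68 (median 6.34) on irradiated arrays and 6.39 to 6.96 (median 6.59) on unirradiated ones, and its change of -0.35 missed the threshold (limma adjusted p = 0.0621). It passed with the replicate number as a block (limma adjusted p = 0.0184). TOP2A, the topoisomerase that untangles sister DNA, changed by -0.24 (limma adjusted p = 0.151).

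The 11 spindle and microtubule genes gave the most calls. TROAP (tastin, a spindle-associated protein) ran from 8.65 to 9.17 (median 8.91) on irradiated arrays and from 9.55 to 10.15 (median 9.69) on unirradiated arrays. It fell 1.76-fold (limma adjusted p = 6.04e-08) without overlap. ASPM, the spindle-pole protein mutated in microcephaly, ran from 8.60 to 9.44 (median 9.12) on irradiated arrays and from 9.65 to 10.08 (median 9.94) on unirradiated arrays and fell 1.75-fold, also without overlap. CKAP2 and CKAP2L, related microtubule stabilizers, fell 1.59-fold and 1.56-fold. GTSE1, a microtubule plus-end protein that also restrains p53, DLGAP5 (HURP, of kinetochore fibres), SPAG5 (astrin) and HMMR fell by 0.46, 0.42, 0.26 and 0.24 on the log2 scale. TACC3, of the fibre-bridging complex with clathrin, changed by -0.33 and the importin KPNA2 by -0.19, neither called. NUSAP1 was the least affected, with irradiated arrays from 10.88 to 11.44 (median 11.04), unirradiated arrays from 10.98 to 11.42 (median 11.20) and a change of -0.12 (95% interval -0.26 to 0.019).

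Of the ubiquitin ligase and sister separation genes, 3 of 5 fell. CDCA3, an adaptor in the destruction of the kinase WEE1, covered 9.54 to 10.08 (median 9.82) on irradiated arrays and 10.15 to 10.58 (median 10.32) on unirradiated arrays, and fell 1.45-fold (limma adjusted p = 2.68e-05). The arrays did not overlap. UBE2C, the E2 enzyme that starts ubiquitin chains for the anaphase-promoting complex, covered 11.9995 to 12.36 (median 12.18) on irradiated arrays and 12.26 to 12.61 (median 12.46) on unirradiated ones. It fell 1.22-fold and UBE2S, which extends those chains, 1.21-fold. PTTG1 (securin) covered 12.47 to 12.85 (median 12.68) on irradiated arrays and 12.72 to 13.11 (median 12.82) on unirradiated ones. It was lower in all 12 same-chip pairs, yet its change of -0.18 was not called (limma adjusted p = 0.198), though it was with the replicate number as a block (limma adjusted p = 0.0422). ESPL1, the protease separase, changed by -0.23 and was not called.

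Among kinases, phosphatases and CDK partners 2 of 7 fell. NEK2, the centrosome-splitting kinase, measured 8.81, 8.82 and 8.83 with both shRNAs at 5 Gy, against 9.59, 9.56 and 9.38 at 0 Gy. With hairpin b it measured 8.92, 9.32 and 8.77 at 5 Gy, against 9.73, 9.97 and 9.81 at 0 Gy. In both treatments with hairpin b the irradiated arrays were the lower ones. With the p53 shRNA it measured 8.90, 8.85 and 8.60 at 5 Gy, against 9.74, 9.74 and 9.29 at 0 Gy. With the control shRNA it measured 8.87, 8.95 and 8.97 at 5 Gy, against 9.73, 9.51 and 9.70 at 0 Gy. Within each treatment the doses did not overlap, and NEK2 fell 1.69-fold on average (limma adjusted p = 1.71e-07). The paralogues CKS2 and CKS1B, small proteins that bind cyclin-dependent kinases and help them choose substrates, did not move alike. CKS2 ran from 11.90 to 12.28 (median 12.11) on irradiated arrays and from 12.32 to 12.92 (median 12.59) on unirradiated ones, without overlap, and fell 1.43-fold (limma adjusted p = 2.47e-05). CKS1B, also a cofactor in the destruction of the CDK inhibitor p27, ran from 12.48 to 12.84 (median 12.57) on irradiated arrays and from 12.32 to 12.77 (median 12.54) on unirradiated ones, a change of 0.033 ± 0.056 (SE). Second probes gave -0.52 for CKS2 and -0.050 for CKS1B. The CKS2 change minus the CKS1B change averaged -0.55 ± 0.16 (SD) and was below 0 in all 12 same-chip pairs, a contrast singled out after its values were seen and therefore given with no test. The phosphatase CDKN3, the PP2A inhibitor CIP2A and the kinases PBK and MELK changed by -0.17, -0.17, -0.14 and -0.039, none called.

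In the last group DEPDC1, a DEP-domain protein, covered 7.84 to 8.79 (median 8.18) on irradiated arrays and 8.89 to 9.43 (median 9.10) on unirradiated ones and fell 1.80-fold (limma adjusted p = 8.05e-07). PIMREG covered 8.62 to 9.23 (median 9.004) on irradiated arrays and 9.35 to 9.79 (median 9.67) on unirradiated ones and fell 1.55-fold. Neither overlapped. FOXM1, the transcription factor that drives many genes of this set, covered 9.58 to 10.23 (median 9.85) on irradiated arrays and 9.64 to 10.24 (median 9.98) on unirradiated ones. Its change was -0.085 (95% interval -0.24 to 0.071) and its second probe gave -0.090, so a decrease of the size seen in DEPDC1 lay outside the interval.

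**Figure D2:**
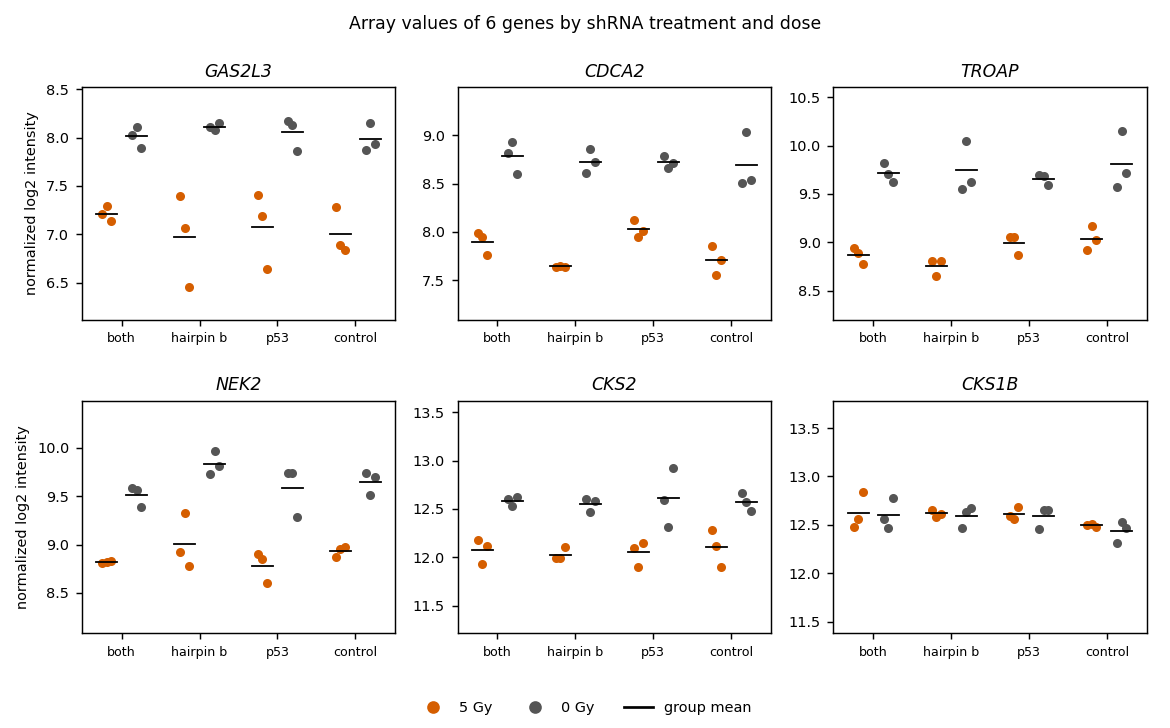
Normalized log2 intensity of 6 genes (vertical axes, all spanning the same width) on each array, by shRNA treatment, with 5 Gy (orange) left of 0 Gy (grey) and bars at the means of 3 arrays. GAS2L3, CDCA2, TROAP and CKS2 have all 12 irradiated arrays below all unirradiated arrays, NEK2 separates within each treatment, and CKS1B overlaps throughout.

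The decrease was present under every shRNA treatment. Taken alone, irradiation lowered 5 of 42 members with both shRNAs (background 0.193% of all genes), 11 with hairpin b (0.523%), 5 with the p53 shRNA (0.225%) and 10 with the control shRNA (0.378%). It raised no member, where in the same order of treatments 0.00805%, 0.234%, 0.0242% and 0.209% of all genes rose. The members' medians were -0.33, -0.34, -0.27 and -0.30 in that order of treatments, against 0.0028, -0.021, 0.015 and 0.0016 over all genes. The 3 irradiated arrays lay below the 3 unirradiated ones for 21 members with both shRNAs, 27 with hairpin b, 22 with the p53 shRNA and 23 with the control shRNA, where 4.31%, 8.98%, 3.44% and 4.97% of all genes did so. CDCA2, TROAP, NEK2 and CKAP2L were called under all 4 treatments, as were 0.153% of all genes. Across the 42 members the changes under different treatments correlated with Pearson's r of 0.76 to 0.88. This is a description over genes measured with the same probes and partly on the same chips.

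These counts per treatment were less steady than the average. With the replicate number as a block 9 members were called under the p53 shRNA and likewise 9 when hairpin b was added to it. In that fit 49 and 37 of all genes were called, in place of 31 and 25. Arrays of 1 shRNA with the same number sat on 1 chip at both doses, but a number spans more than 1 chip across shRNAs. Leaving out 1 array took the count to between 0 and 3 with the p53 shRNA, the 0 coming without irradiated replicate 3. It took the count to between 3 and 5 with both shRNAs. With the control shRNA the count was between 3 and 9, and the 3 came without unirradiated replicate 2. Calls among all genes in these refits are not given here, so a loss among the members cannot be told from a general loss of calls. Fitted on the 6 arrays of a comparison alone, with 4 residual degrees of freedom, limma called 0 members with both shRNAs, 1 with hairpin b, 0 with the p53 shRNA and 2 with the control shRNA. Of all genes it called 5, 17, 5 and 28 in that order. On single chips the members' median stayed between -0.45 and -0.19 in these 4 comparisons.

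Whether the p53 shRNA changed the response was tested as an interaction, the irradiation change with the p53 shRNA minus that without it. No member was called by limma in this test (background 0.0161% of all genes). An unadjusted p under 0.05 was found for 1 member and for 425 of 12419 genes. The members' median difference was 0.075, against 0.025 over all genes. Within the 4 chips the median was 0.054, 0.18, -0.0081 and 0.17. No chip held all 4 shRNA treatments, so these 4 medians compare different treatments and are not repeats of 1 contrast. The smallest p belonged to CEP55, with a difference of 0.39 ± 0.17 (SE, limma adjusted p = 0.998). CEP55 changed by -0.26 with both shRNAs, -0.76 with hairpin b, -0.067 with the p53 shRNA and -0.35 with the control shRNA. CDCA2 came next with a difference of 0.25 (95% interval -0.027 to 0.52, limma adjusted p = 0.998). The 95% interval for CEP55, 0.037 to 0.75, includes a difference as large as its whole averaged decrease of 0.36. For TROAP the interval was -0.16 to 0.42 and for NEK2 -0.27 to 0.32, beside averaged decreases of 0.82 and 0.76. These intervals concern this p53 shRNA only. Under it CDKN1A still rose by 1.24 on the log2 scale after irradiation, against 1.72 with the control shRNA. A fuller loss of p53 was not tested. p53 targets, on the same arrays, had a median interaction of -0.38 with 2 of 31 called lower. CDKN1A was not among those called, at -0.49 ± 0.18 (SE, limma adjusted p = 0.998).

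The same test for hairpin b also called no member (background 0 of 12419 genes), with 2 members and 702 of all genes at an unadjusted p under 0.05. The members' median difference was -0.030, against -0.010 over all genes. NCAPD2, a regulatory subunit of condensin I, had the smallest p, with a difference of -0.52 ± 0.15 (SE, limma unadjusted p = 0.00172, adjusted p = 0.697). With both shRNAs NCAPD2 measured 10.24, 10.33 and 10.20 at 5 Gy, against 10.59, 10.91 and 10.60 at 0 Gy. With hairpin b it measured 10.09, 9.99 and 10.16 at 5 Gy, against 10.28, 10.52 and 10.63 at 0 Gy. The doses did not overlap in these treatments, and the irradiated arrays were the lower ones. With the p53 shRNA it measured 10.39, 10.56 and 10.46 at 5 Gy, against 10.21, 10.47 and 10.23 at 0 Gy. With the control shRNA it measured 10.16, 10.46 and 10.81 at 5 Gy, against 10.26, 10.43 and 10.62 at 0 Gy. Here, with the p53 shRNA or the control shRNA alone, the doses overlapped. Within the 4 chips the NCAPD2 difference was -0.23, -0.47, -0.71 and -0.67. No chip held all 4 shRNA treatments, so each of these values sets different treatments against each other. CKAP2L had the next smallest p, with a difference of -0.23 (95% interval -0.43 to -0.031, limma adjusted p = 0.820).

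**Figure D3:**
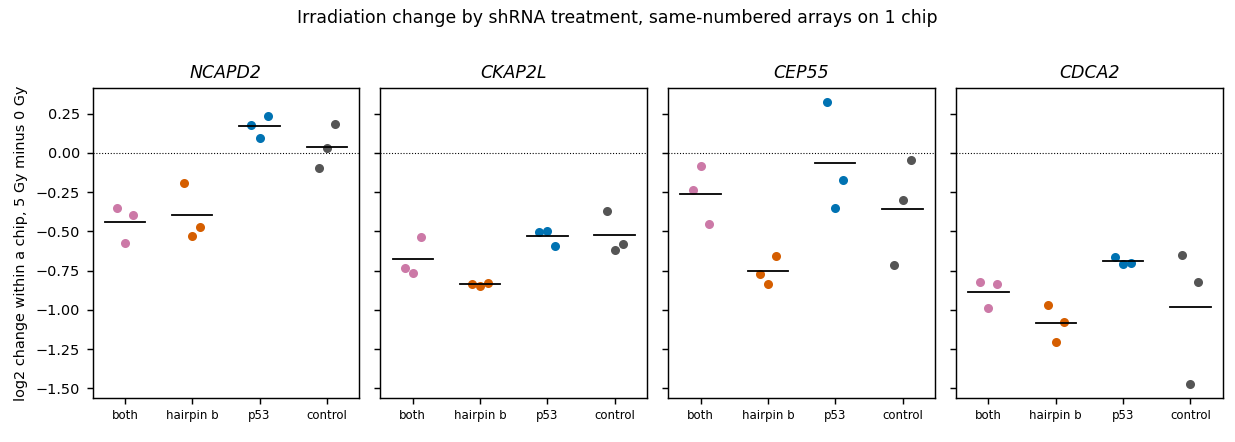
Log2 change within a chip, 5 Gy minus 0 Gy (vertical axis), for 4 genes under both shRNAs, hairpin b, the p53 shRNA and the control shRNA, with 1 point per pair of same-numbered arrays and bars at the means of 3. NCAPD2 is below 0 in all 6 pairs with hairpin b and above 0 in the 3 pairs with the p53 shRNA alone, while CKAP2L and CDCA2 are below 0 in all 12 pairs.

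Hairpin b and the p53 shRNA were also compared with their references at each dose. In none of the 8 comparisons of an shRNA with its reference did limma call a member, while between 0.153% and 1.16% of all genes were called in either direction. At 0 Gy the share of all genes was 0.443% for hairpin b, 0.507% for hairpin b in p53-depleted cells, 0.33% for the p53 shRNA and 0.153% for the p53 shRNA in NFBD1-depleted cells. At 5 Gy it was 1.16%, 0.709%, 0.701% and 0.395% in the same order. Members with an unadjusted limma p under 0.05 numbered 0 to 5 in a comparison, where 515 to 1223 of 12419 genes had one. The 5 came with the p53 shRNA against the control shRNA at 5 Gy, where 997 genes had one. The members' medians at 0 Gy were 0.035 for hairpin b against the control shRNA and -0.0094 for hairpin b in p53-depleted cells, and 0.028 and -0.013 for the p53 shRNA against the control shRNA and in NFBD1-depleted cells. At 5 Gy the medians were -0.018, -0.040, 0.078 and 0.079 in the same order.

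The members with the smallest p at 0 Gy were DEPDC1 (0.25) and CKS1B (0.16) for hairpin b, and NCAPD2 (0.40, limma adjusted p = 0.474) and NCAPH (0.48) for hairpin b in p53-depleted cells. For the p53 shRNA they were RACGAP1 (-0.28) and MKI67 (0.37), and in NFBD1-depleted cells NEK2 (-0.33) and DEPDC1 (-0.31), all as log2 changes that were not called. NCAPH was the member not detected on every array. At 5 Gy the largest values belonged to CEP55, at -0.48 for hairpin b against the control shRNA (limma adjusted p = 0.273) and 0.49 for the p53 shRNA in NFBD1-depleted cells (limma adjusted p = 0.404). CEP55 measured 10.51, 10.77 and 10.70 with hairpin b and 10.74, 11.30 and 11.39 with the control shRNA at 5 Gy, which overlapped on 1 array. It measured 11.27, 11.16 and 11.01 with both shRNAs, above all arrays with hairpin b alone. CKAP2L had the smallest p for hairpin b at 5 Gy, at 9.19, 9.30 and 9.35 with hairpin b and 9.67, 9.60 and 9.61 with the control shRNA. Those arrays did not overlap, and the change of -0.34 was not called (limma adjusted p = 0.0995). It was called with the replicate number as a block (limma adjusted p = 0.0374). For the p53 shRNA at 5 Gy, RACGAP1 (-0.40) and CDCA2 (0.32) had the smallest p, CDCA2 also following CEP55 in NFBD1-depleted cells (0.26). CIP2A (0.39) and FOXM1 (-0.28) did so for hairpin b in p53-depleted cells, none of them called.

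With the second NFBD1 hairpin, NFBD1a, condensin, spindle and cytokinesis genes were lower in unirradiated cells. In all, 25 of 42 members fell and none rose, where 12.6% of all genes fell and 13.6% rose. All 42 members were below 0, with a median of -0.26 against 0.0076 over all genes, and for 32 of them the 3 hairpin arrays lay below the 3 control arrays, which 20.2% of all genes did. The changes were small, from -0.47 to -0.050. They are those of the brightest probe, and of 14 members with more than 1 detected probe ARHGAP11A and UBE2C had probes of opposite sign. Calls fell in every role group, with 4 of 8 cytokinesis genes, 6 of 8 chromosome structure genes, 7 of 11 spindle genes, 1 of 5 ubiquitin and separation genes, 4 of 7 kinases and partners, and all 3 of the last group. This experiment sat on 1 chip with its own control and was normalized apart from the first.

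CKAP2L measured 9.26, 9.15 and 9.23 with NFBD1a and 9.63, 9.76 and 9.67 with its control, and fell 1.39-fold (limma adjusted p = 0.00105). CEP55 measured 10.61, 10.63 and 10.62 with NFBD1a and 11.16, 11.07 and 11.04 with the control, also 1.39-fold lower (limma adjusted p = 0.000821). PIMREG measured 8.60, 8.61 and 8.59 with NFBD1a and 8.97, 9.07 and 9.11 with the control. These 3 genes, which have the largest changes, did not overlap between groups.

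Of the condensin subunits 4 of 5 fell. SMC4, an ATPase of the condensin core, measured 9.34, 9.30 and 9.36 with NFBD1a and 9.72, 9.76 and 9.80 with the control (limma adjusted p = 0.0012). NCAPD2 measured 9.76, 9.65 and 9.78 with NFBD1a and 10.24, 10.06 and 10.09 with the control (limma adjusted p = 0.0039). The groups did not overlap for either gene, and SMC2 (-0.30) and NCAPG (-0.31) were called as well. NCAPH (-0.17) was not. All 3 detected probes of SMC4 (-0.44 to -0.37) and of SMC2 (-0.49 to -0.30) were below 0 with NFBD1a.

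NEK2 measured 8.46, 8.34 and 8.48 with NFBD1a and 8.996, 8.84 and 8.73 with the control. NUSAP1 measured 10.03, 10.29 and 10.31 with NFBD1a and 10.63, 10.56 and 10.63 with the control. DEPDC1 measured 7.52, 7.60 and 7.61 with NFBD1a and 7.95 on each control array. None of the 3 genes overlapped between groups, and they fell 1.35-fold, 1.32-fold and 1.29-fold. FOXM1 fell by 0.35 on the log2 scale and its second probe by 0.34. CKS2 (-0.24) was called and CKS1B (-0.066) was not. On the same arrays CDKN1A was 1.78-fold higher (limma adjusted p = 4.81e-05), and 18 of 32 p53 targets were called higher.

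Set beside each other, the irradiation average and NFBD1a share no arrays. 14 members were called lower in both, which is 66.7% of the irradiation calls and 56% of the NFBD1a calls. Over the whole set NFBD1a called 59.5% of members and irradiation 50%, so the shared calls lie near the share of the set that each contrast called. The 7 called after irradiation alone were CDCA3, UBE2C, UBE2S, DLGAP5, SPAG5, GTSE1 and PRC1. The 11 called with NFBD1a alone were NCAPD2, NCAPG, SMC2, SMC4, TOP2A, NUSAP1, TACC3, PTTG1, PBK, CDKN3 and FOXM1. Pearson's r between the 2 sets of changes was 0.38 over the 42 members, given as a description of genes read with the same probes. The difference between the 2 contrasts was not tested, since the experiments were normalized separately, with a median standard error of 0.073 in each.

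**Figure D4:**
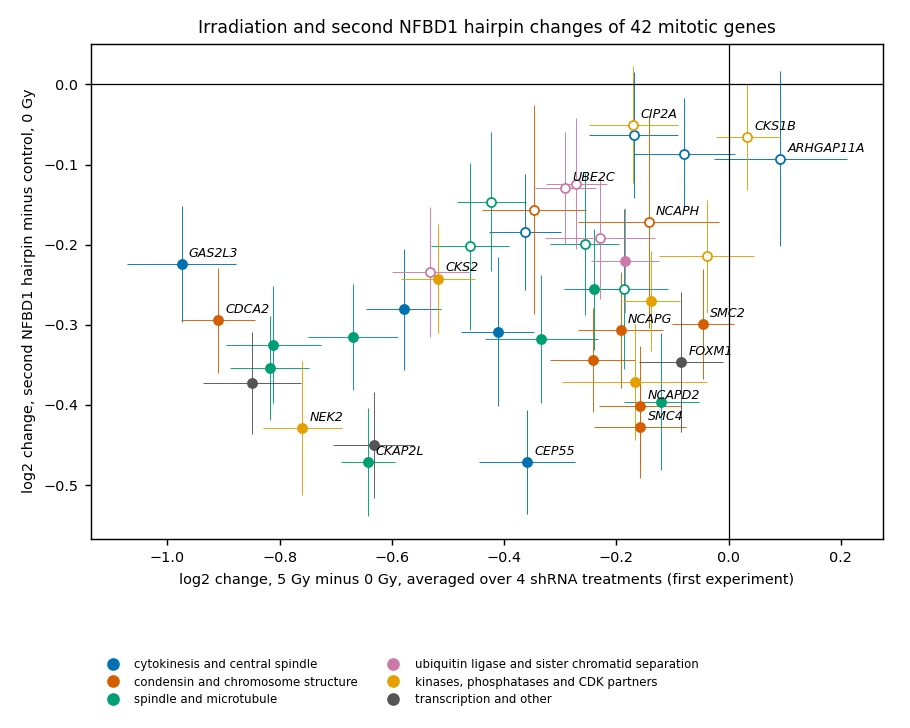
Log2 change with NFBD1a minus its control at 0 Gy (vertical axis) against the averaged irradiation change (horizontal axis) for the 42 genes, coloured by role, with standard errors as bars and filled circles where the NFBD1a change was called. The condensin subunits NCAPG, NCAPD2, SMC2 and SMC4 lie toward the right, at averaged irradiation changes of -0.19 to -0.046, but between -0.43 and -0.30 with NFBD1a.

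Beside the members, other cell cycle genes on the same arrays moved as follows. Of 55 other mitotic genes (kinases, cyclins, centromere and kinesin genes), 36 fell after irradiation on average (median -0.48) and 43 fell with NFBD1a (median -0.32). CCNB1, which encodes cyclin B1, fell 1.84-fold after irradiation. Of 39 G1/S and replication genes tested, none fell and 1 rose after irradiation (median 0.017), while with NFBD1a 14 of 40 fell and 1 rose (median -0.15). CDKN1A rose 2.61-fold after irradiation and 23 of 31 p53 targets rose. CDKN1A after irradiation changed by 1.04 with both shRNAs, 1.53 with hairpin b, 1.24 with the p53 shRNA and 1.72 with the control shRNA, on the log2 scale. Of 11 housekeeping genes none was called after irradiation, and 1 rose with NFBD1a. The part of CDKN1A and of cell cycle position in the members' changes was not tested.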

How the data were processed

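Total RNA from 30 U2OS samples was hybridised to Illumina bead arrays of 48802 probes. The authors deposited, per the file headers, an unnormalized signal intensity for each probe with its standard error over beads, its number of beads and a detection p-value. A value table on a log2 scale was also deposited by the authors. Its columns share 1 distribution, with medians of 6.95, and how it was made is not given in the sources used here.

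Within each experiment the intensities were background-corrected and quantile-normalized with neqc (limma 3.58.1, R 4.3.3, offset 16, negative controls inferred from the detection p). Probes detected at p under 0.01 on at least 3 arrays were kept, and a gene was represented by its brightest kept probe. Gene names came from the platform annotation, in which 27577 probes have 1 symbol, 13 several and 21212 none. Only probes with 1 symbol were named. Group means were fitted with lmFit and eBayes (16 and 4 residual degrees of freedom), p-values were adjusted by Benjamini-Hochberg over all genes of the experiment, and a gene was called at an adjusted p under 0.05. The procedure was tested on simulated data. The number of arrays limits the precision, and replicate arrays correlated at 0.979 to 0.997.

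The members, the role groups and the other gene lists were chosen with earlier results of these data known. Values by array are given, for irradiation, for the 2 most negative members and the least negative one of each role group. For NFBD1a they are given for the 8 largest called changes, and otherwise the 2 members with the smallest p are named. NEK2, CDCA2, NCAPD2 and CEP55 are shown in more detail as examples chosen after their values were seen. Same-numbered arrays of 1 shRNA shared a chip at both doses, and their deviations from the group means correlated at 0.0915 to 0.626 over 12 pairs. By that check the numbers paired the arrays in the irradiation comparisons other than that with the control shRNA, and did not in the second experiment (-0.056 to 0.034). They also paired the arrays in the shRNA comparisons, except the p53 shRNA against the control shRNA at either dose. With the replicate number as a block, no member was called in the shRNA comparisons except CKAP2L for hairpin b at 5 Gy. Alternatives were the authors' log2 values, no background correction, no detection filter, the mean over a gene's probes, the replicate number or the chip as a block, a fit on the compared arrays alone, each array left out, and a promoter window of 150 bases.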

Additional observations from a re-analysis of the deposited data

Results flagged for a closer look

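NCAPD2 was the gene whose irradiation change ran in opposite directions in every array pair of 2 treatments. Its change, 5 Gy minus 0 Gy within a chip, averaged 0.17 with the p53 shRNA (0.092 to 0.24) and -0.40 with hairpin b (-0.53 to -0.19), a difference of 0.57. It averaged -0.44 with both shRNAs (-0.58 to -0.35) and 0.17 with the p53 shRNA, a difference of -0.61. These were the 2 such cases among 252 combinations of member and treatment pair that were searched, and neither difference was itself tested. Both cases rest on the same array pairs with the p53 shRNA, so they are not separate observations. The search was not run over all genes, so there is no background share to set these cases against. The NFBD1 interaction over all 4 treatments gave NCAPD2 a limma adjusted p of 0.697. The 2 NFBD1 hairpins were searched by another criterion, arrays of hairpin and control that do not overlap, in opposite directions. With hairpin b at 0 Gy the arrays overlapped for every member, so this search could find none of the 42. By the sign of the change alone, 25 members were above 0 and 17 below with hairpin b at 0 Gy. Of all genes 47.7% were below 0 in that comparison, and no member had an unadjusted limma p under 0.05. With NFBD1a all 42 were below 0 by their brightest probe, as were 48.6% of all genes.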

How the results depend on the processing

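Of 122 counts of called members recomputed under other settings, 15 moved by more than 1.5 times. Most of the 122 belong to comparisons with a count of 0 in the main fit, nearly all of which stayed at 0. The 15 therefore say little about the steadiness of the irradiation counts, which follow. The averaged irradiation count (21) was 21 to 26, and the NFBD1a count (25) was 22 to 30. Over all genes the calls were 223 to 384 in place of 224, and 2569 to 3406 in place of 2896. With both shRNAs the irradiation count of 5 became 9 with the replicate number as a block, 10 with the chip as a fixed block and 9 with the chip as a random block. Calls among all genes rose as well, from 25 to 37, 45 and 43 in that order. With the p53 shRNA the count of 5 became 9 under each of these 3 settings, and calls among all genes rose from 31 to 49, 50 and 53. On the compared arrays alone, which leaves 4 residual degrees of freedom, the irradiation counts were 0 with both shRNAs, 1 with hairpin b, 0 with the p53 shRNA and 2 with the control shRNA. Over all genes they were 5, 17, 5 and 28 in that order. For hairpin b at 5 Gy, 1 member, CKAP2L, was called in place of 0 with the authors' values, without the detection filter, with the replicate number as a block and with the chip as a fixed or a random block. In those settings 149 to 319 genes were called, in place of 144. Leaving out 1 array gave 19 to 22 calls for the irradiation average, 3 to 5 with both shRNAs, 8 to 11 with hairpin b, 0 to 3 with the p53 shRNA, 3 to 9 with the control shRNA, 17 to 22 for NFBD1a and 0 to 0 for the other comparisons. The lower counts included 5 with the control shRNA without replicate 3 at either dose. For the counts with 1 array left out, calls among all genes are not given here, so they cannot be set against a background. The mean over a gene's probes turned the averaged irradiation change of ARHGAP11A to -0.29 and of CKS1B to -0.0084. In the 150-base promoter window 60% of members and 7.43% of all promoters held a CHR form. The chip could not be used as a block for NFBD1a, which lay on 1 chip. Except where a setting removes arrays, the cause of these shifts was not tested.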
